A study of Mus musculus with 6 samples.

Results

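Of the genes measured in Med12-deleted haematopoietic stem and progenitor cells (HSPCs), 9 that encode signalling adaptors of lymphocytes are described here: Lat, Lat2, Lax1, Trat1, Sit1, Pag1, Lcp2, Blnk and Tespa1. The members were all probe sets that the array's probe-to-gene table gives to exactly 1 of these symbols, which made 18 of 45037 probe sets tested, or 9 of 18193 named genes. The genes were chosen by what they encode with the signals of this same control-against-knockout comparison already in view, so their differences between control and knockout are a description and support nothing further.

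The HSPC_control and HSPC_Med12 KO groups had 3 arrays each, named here by group and replicate number. Cells were sorted from mouse bone marrow as lineage-negative, c-Kit-positive and Sca1-positive, a gate that holds stem cells and multipotent progenitors. The knockout mice were Med12Flox;MxCre, with a floxed gene for the Mediator kinase module subunit Med12 and a Cre driven by the interferon-responsive Mx promoter. All mice were of a B6/129 background and received pI:pC, a double-stranded RNA that induces interferon and thereby Cre, and the sort followed 4 days later in each group. The labels give neither the genotype of the controls nor the age of the mice, and nothing in them says that arrays came from separate animals, so errors measure only the spread between these samples. Mx-Cre is active in many cell types that respond to interferon, so deletion was not limited to HSPCs. Med12 itself was read at 278.6, 837.4 and 441.6 in the controls, above the 89.1, 100.4 and 86.4 of the knockouts. Its log2 difference was -2.17 (SE 0.38), which missed the threshold of 0.05 in limma's test across all probe sets (adjusted p = 0.0796). Whether its single probe set lies in the deleted part is not known here. Of the genes for the gate's own markers, Kit gave 805.2 to 1425.4 in controls against 514.8 to 617.5 after deletion, and Ly6a was not analysed here. Cd34 and Cd48, progenitor genes that were not part of the gate, were also lower without overlap, as were 2470 of all 18193 genes. Kit, Cd34 and Cd48 each missed the threshold in limma's test. Signals under 16 made up 41.6% to 42.3% of probe sets on control arrays and 45.5% to 49.5% on knockout arrays.

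Adaptors have no catalytic activity of their own. When an antigen receptor is engaged, Src-family and Syk-family kinases phosphorylate tyrosines in their tails, and these tyrosines dock proteins such as Grb2 and phospholipase C-gamma, which pass the signal to Ras and calcium. Lat with Lcp2 forms the scaffold of the T cell receptor, and Blnk does the corresponding work in B cells and their precursors at the pre-B cell receptor. Lat and Lcp2 also act in platelets and mast cells, so the family is not limited to lymphocytes. Lax1, Sit1 and Pag1 are mostly known as brakes: Pag1 recruits Csk, the kinase that holds Src-family kinases inactive.

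Promoter sequence is shown for Lax1 and Trat1, the members that passed the test across all probe sets, and for Lat, the only member with a higher mean log2 signal in knockouts. RefSeq's promoter table of build GRCm38.p6 matched 6 of the 9 genes, with 7 start sites; Lat2, Pag1 and Tespa1 were not matched. Each sequence gives the 250 bases before the start, read 5′ to 3′ on the gene's strand, and capitals mark matches on either strand to CAGGAA, a core bound by many ETS factors.
Lax1, chr1:133690109-133690358, minus strand: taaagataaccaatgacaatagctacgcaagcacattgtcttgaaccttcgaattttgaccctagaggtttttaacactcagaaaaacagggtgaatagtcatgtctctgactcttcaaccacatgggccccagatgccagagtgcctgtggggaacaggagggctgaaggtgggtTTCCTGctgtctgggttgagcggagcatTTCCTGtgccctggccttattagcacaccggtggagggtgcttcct
Trat1, chr16:48772063-48772312, minus strand: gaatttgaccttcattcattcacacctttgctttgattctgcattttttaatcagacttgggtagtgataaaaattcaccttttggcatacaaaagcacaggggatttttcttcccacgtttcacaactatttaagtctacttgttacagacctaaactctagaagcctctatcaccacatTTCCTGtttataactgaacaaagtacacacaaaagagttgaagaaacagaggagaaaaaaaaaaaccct
Lat, chr7:126369569-126369818, minus strand: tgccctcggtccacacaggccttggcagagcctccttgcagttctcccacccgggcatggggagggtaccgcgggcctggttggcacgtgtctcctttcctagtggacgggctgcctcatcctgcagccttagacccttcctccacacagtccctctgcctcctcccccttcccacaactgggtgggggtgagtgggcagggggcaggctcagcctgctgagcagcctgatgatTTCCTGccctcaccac

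This core was found in the 250 bases before a start of 5 of the 6 genes (Lax1, Trat1, Sit1, Blnk and Lat) and not in that window of Lcp2. Of 32851 promoters of the same length in the table, 25.7% held it. In Lax1 it lay 74 and 46 bases before the start shown, and a second Lax1 start, which shares most of this sequence, had 3 matches where 0.615% of promoters had 3 or more. In Trat1 it lay 69 bases before the start and in Lat 16 bases. A further 4 strings were searched on both strands. AGATAA, the core of many GATA factor sites, was found in 2 of the 6 genes, Lax1 and Lcp2, and in 9.99% of all promoters. The E-box CAGCTG was found in 2 genes, Sit1 and Lcp2, and in 13% of promoters. TGTGGT, a core of RUNX sites, was found in Lax1 and Trat1 and in 14% of promoters. TGGGAA, a core of Ikaros family sites, was found in Lat, Lcp2 and Trat1 and in 21.6% of promoters. No pair of these strings can match the same bases in full. The strings were picked with the sequences and signals in view, and a match is not evidence of binding. Any relation of these strings to the differences between control and knockout was not tested.

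Lax1 and Trat1 fell in Med12 knockouts, and 6 of the other 7 adaptor genes had a lower mean log2 signal there, with differences of -0.26 to -0.98 for the brightest probe set of each that did not pass the test. A total of 17 of the 18 probe sets were lower, 15 of 18 after each array was centred on its median, and Lat was an exception in both cases. Of all genes 57.8% were lower before centring, which moved the median of all genes from -0.05 to 0.22. In limma's fit, 2 member probe sets passed at an adjusted p under 0.05, both lower, where 0.542% of all probe sets passed in that direction and 0.762% in either. The 3 knockout values lay below the 3 control values in 11 of the 18, and in 13.3% of all probe sets. By gene, taking the probe set of highest mean signal, the median log2 difference was -0.77, against -0.05 over all genes. Differences are of log2(signal + 16), knockout minus control, and the added 16 damps the difference of dim probe sets. On all 3 knockout arrays 7 of the 18 member probe sets had signals under 16, and 0 of 18 did on all 3 control arrays. Leaving out any 1 array ended the calls of Lax1 and Trat1, as it took the calls among all probe sets from 343 to between 0 and 10.

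**Figure D1:**
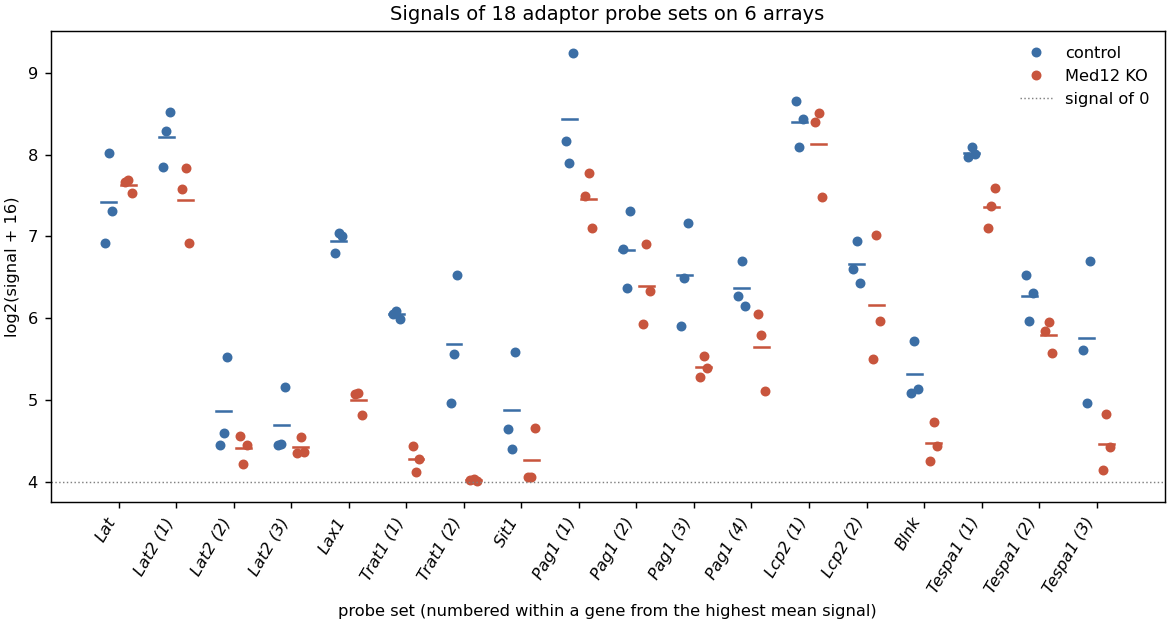
Log2(signal + 16) of each of the 18 adaptor probe sets (horizontal axis, numbered within a gene from the highest mean signal) on 3 control and 3 Med12 KO arrays; points are arrays, bars are group means, and the dotted line is a signal of 0. The knockout points of Lax1 and of the brighter Trat1 probe set lie well under tight control points, while the control points of the dimmer Trat1 probe set are spread. Those of Lat in knockouts lie within the control range, and 7 probe sets have all 3 knockout signals under 16.

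Lax1, a transmembrane adaptor of T and B cells that damps antigen receptor signalling, was read by 1 probe set. Its signals were 94.9, 115.6 and 111.9 in controls and 17.7, 18 and 12.2 in knockouts. The groups were far apart, and each was tight: the means were 107 ± 11.0 and 15.97 ± 3.27 (SD, n = 3 each). The log2 difference was -1.95 (SE 0.14), the largest of the 9 genes with 16 added before log2, though not with 1 added.

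Trat1, which binds the T cell receptor complex and helps keep it at the cell surface, had 2 probe sets that moved alike. The brighter gave 50.5, 52.1 and 47.6 in controls and 5.6, 1.4 and 3.3 in knockouts, a log2 difference of -1.77 (SE 0.13). The dimmer gave 15.1, 31.2 and 76.4 in controls and 0.2, 0.4 and 0.1 in knockouts, a log2 difference of -1.66 (SE 0.39). All knockout signals of both probe sets were near 0, and the second, whose control arrays ranged widely, did not pass. The size for Trat1 depends on the amount added before log2: it was -3.64 with 1 added and -0.76 with 64 added, and Lax1 gave -2.69 and -1.10. With 1 added neither gene passed.

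Pag1, the membrane anchor for Csk, was lower on each of its 4 probe sets, and none passed. The brightest had signals of 270.8, 222.7 and 591.8 in controls and 163.9, 203.4 and 121.1 in knockouts (log2 difference -0.98, SE 0.39). Control replicate 3 stood above the other arrays there, and without it the difference was -0.58. The other 3 probe sets were at -1.12 (SE 0.32), -0.72 (SE 0.29) and -0.45 (SE 0.34), and groups overlapped only on the last of them. The probe set at -1.12 had signals of 44.1, 74.1 and 127.5 in controls and 23, 30.4 and 25.8 in knockouts.

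Lat2, a relative of Lat found in B cells, mast cells and myeloid cells, had 1 bright probe set. It gave 214.5, 295.6 and 350.8 in controls and 175.8, 212.9 and 105.1 in knockouts, with a gap of less than 2 signal units between the groups. The log2 difference was -0.77 (SE 0.30) and did not pass. Its remaining probe sets had signals of 2.6 to 30 on the 6 arrays and overlapped, at -0.45 (SE 0.31) and -0.27 (SE 0.22).

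Sit1, an adaptor that recruits the phosphatase Shp2 and limits T cell receptor signalling, was dim throughout. Its signals were 9.1, 5.1 and 31.9 in controls and 0.6, 0.7 and 9.3 in knockouts, and the groups overlapped. The log2 difference of -0.62 (SE 0.35) became -0.27 without control replicate 3, the only array on which the signal was over 16. It was -2.06 with 1 added before log2 and -0.22 with 64 added.

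Lat, the central scaffold of T cell receptor signalling, differed from the others in sign. Its signals were 104.6, 244.3 and 142.4 in controls and 186.8, 190.2 and 168.2 in knockouts. The knockout signals lay inside the control range, and the log2 difference was 0.21 (SE 0.29). It turned to -0.04 without control replicate 1, so no direction can be given for Lat.

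Blnk, the linker that joins Syk to Btk and phospholipase C-gamma in B lineage cells, had signals of 17.9, 36.7 and 19.1 in controls and 3.1, 10.5 and 5.7 in knockouts. The groups did not overlap although all signals were low, with a log2 difference of -0.84 (SE 0.23) that did not pass. It ranged from -1.83 with 1 added to -0.33 with 64 added before log2.

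Lcp2, the cytosolic partner of Lat, had signals of 387.7, 257.6 and 330.3 in controls and 322.0, 349.2 and 162.7 in knockouts. The groups overlapped, the log2 difference was -0.26 (SE 0.32), and its second probe set was at -0.49 (SE 0.40). The direction of the first turned without knockout replicate 3 (0.06) and with median centring (0.01). Lcp2 and Lat were thus the members whose brightest probe set did not keep 1 sign over the settings tried.

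Tespa1, a protein of thymocytes that links receptor signalling to inositol trisphosphate receptors and calcium release, was lower without overlap on all 3 of its probe sets. The brightest had signals of 235.0, 256.7 and 241.8 in controls and 121.6, 149.0 and 176.6 in knockouts. The means were 244.5 ± 11.1 and 149 ± 27.5 (SD, n = 3 each). The log2 difference of -0.67 (SE 0.16) did not pass. The other probe sets were at -1.30 (SE 0.46) and -0.47 (SE 0.19). The groups of the last were separated only narrowly, with 46.4 the lowest control signal and 45.7 the highest knockout signal.

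**Figure D2:**
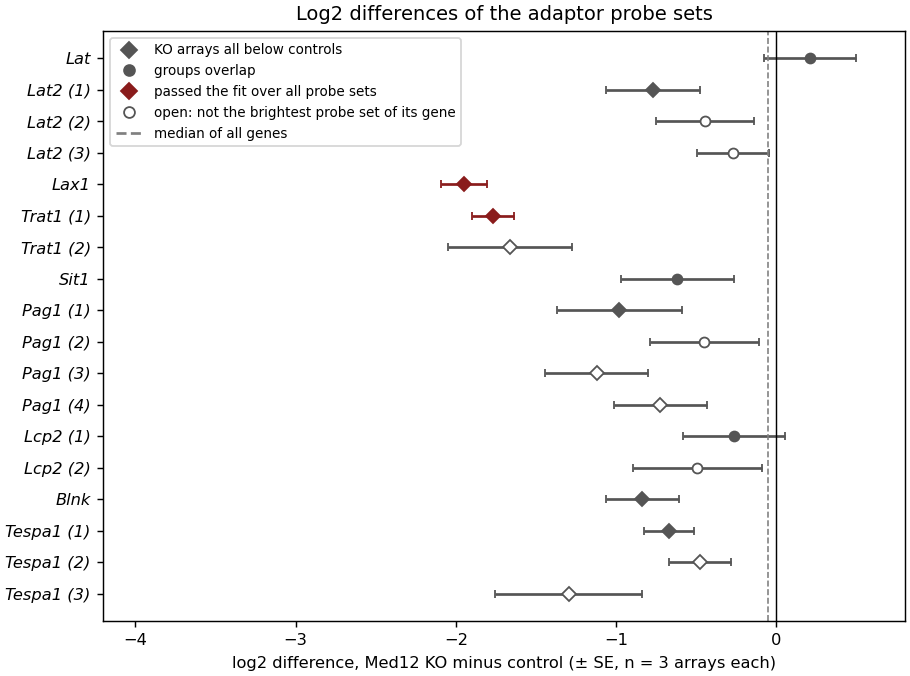
Log2 difference, Med12 KO minus control, of each adaptor probe set (horizontal axis, with SE bars, n = 3 arrays each); diamonds mark probe sets whose knockout arrays all lay below the controls, dark red those that passed limma's test, and open symbols those that are not the brightest of their gene. All but Lat lie left of 0, from -0.26 to -1.95, beside a dashed line for the median of all genes at -0.05.

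The arrays contributed unevenly. Control replicate 3 had the highest of the 3 control signals in 9 of the 18 adaptor probe sets, and in 36.9% of all probe sets. Control replicate 1 was highest in 2 of the 18. Among knockouts, replicates 1 and 3 were each lowest in 8 of the 18 and replicate 2 in 2, against 33.7%, 38.5% and 27.8% of all probe sets. Leaving out any 1 array moved the log2 difference of Lax1 no further than -1.86 and -2.03, and that of Trat1 no further than -1.69 and -1.85. For Tespa1 the range was -0.55 to -0.79 and for Pag1 it was -0.58 to -1.25.

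**Figure D3:**
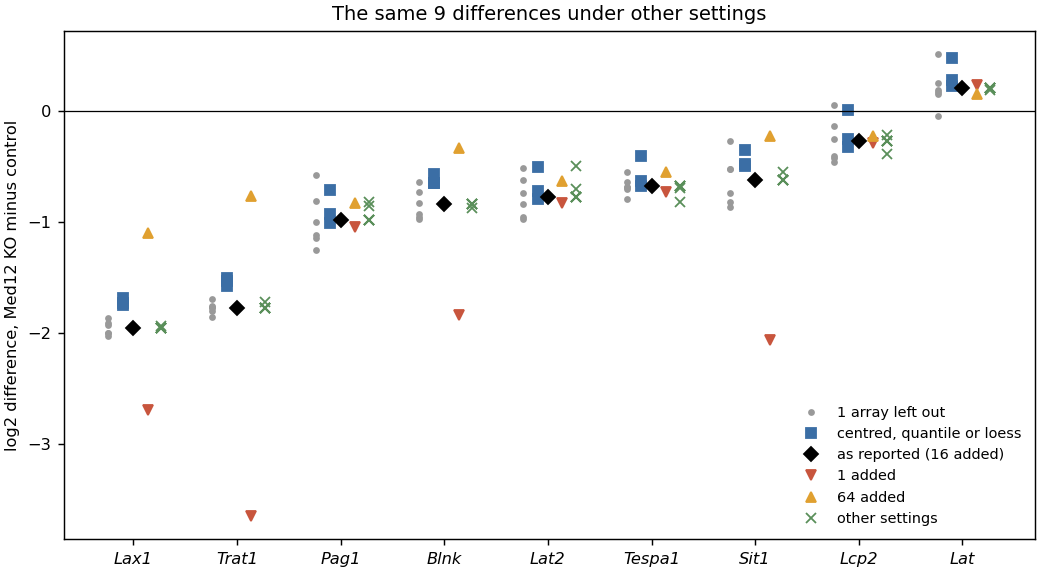
Log2 difference of the brightest probe set of each adaptor gene (horizontal axis) under the settings tried: black diamonds as reported, grey points with 1 array left out, blue squares after centring, quantile or loess normalization, triangles with 1 or 64 added before log2, and crosses for other settings. The amount added moves the dim genes most, with Trat1 between -3.64 and -0.76, and Lat and Lcp2 cross 0.

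Signalling partners of the adaptors were examined in lists. In the lists of receptor chains, other membrane adaptors, kinases and phosphatases, cytosolic adaptors and effectors, 90 of 100 genes were measured, and the others were not analysed here. Of the 90, 2 fell, 0 rose and 88 did not pass in limma's test, where 34 had an unadjusted p under 0.05. Of all 45037 probe sets 7067 had an unadjusted p under 0.05. That count is not of like units, as it includes dimmer probe sets of a gene and probe sets without a symbol. Over all genes 0.638% fell and 0.352% rose. A total of 61 of the 90 were lower, or 47 after median centring, which moves the median of all genes from -0.05 to 0.22. Over all genes 57.8% were lower. All knockout signals lay below all control signals in 27 of the 90 partners and above them in 11. Of all 18193 genes, 2470 lay below and 1792 above.

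The genes that fell, both effectors, were not called under most other settings. Nfatc2, a calcium-dependent transcription factor of activated T cells, went from 190.3, 277.7 and 233.8 in controls to 94.9, 87.5 and 72.5 in knockouts (log2 difference -1.30, SE 0.18; limma adjusted p = 0.0493). Prkcd, a protein kinase C that restrains B cell activation, went from 332.8, 320.8 and 316.3 to 167.4, 178.1 and 181.1 (-0.83, SE 0.11; adjusted p = 0.0477). In both genes all knockout signals lay under all control signals, but each passed under only 2 of the 17 other settings, as did Sos1 and Themis2, and Tyrobp passed under 3. Sos1, the Ras exchange factor carried by Grb2, was at 0.77 (adjusted p = 0.0630) and Rasgrp1, the Ras exchange factor activated by diacylglycerol, at -1.17 (adjusted p = 0.0737). The effector list had a median of -0.37, with 21 of 27 lower.

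Of the 13 receptor and co-receptor chains 12 were lower, and the list median was -0.73. None of the 13 passed. Fcer1g, the signalling chain of Fc receptors, ran from 1288.9 to 1579.3 in controls against 780.9 to 984.7 after deletion (log2 -0.73; limma adjusted p = 0.104). Cd247, the zeta chain that recruits Zap70, had 403.2 to 648.9 and 198.5 to 336.2 (-0.85; adjusted p = 0.204). Cd5 was at -0.65 and Cd28 at -0.84, both with low signals. Among other membrane adaptors, Tyrobp, which serves activating receptors of NK and myeloid cells, was at -1.65 (adjusted p = 0.0999) and Hcst at -0.40, and neither passed.

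The kinase and phosphatase list had a median of 0.10, with 8 genes higher and 7 lower. Zap70, the kinase that phosphorylates Lat and Lcp2, had signals of 39.7, 35.2 and 55.8 in controls and 15.5, 13.2 and 9.2 in knockouts (log2 -1.05; limma adjusted p = 0.0752). Syk, its relative in B cells and myeloid cells, named after its values had been seen, had a difference of -0.59 (adjusted p = 0.311). Ptpn22, a phosphatase that opposes Src-family kinases, was at -0.79 and the CD45 phosphatase Ptprc at -0.55, while Ptpn11, which encodes Shp2, was at 0.32. None of these passed. The 33 cytosolic adaptors had a median of -0.16, with 19 lower and 14 higher, and none passed. Themis2, which takes part in B cell and macrophage signalling, was at -1.24 (adjusted p = 0.0855) and Sla2, which downregulates antigen receptors, at -1.04 (adjusted p = 0.179). Gab2, a docking protein that binds Shp2, was at 0.92 (adjusted p = 0.0903) and Dok2 at 1.05 (adjusted p = 0.186), and in both all knockout signals exceeded all control signals.

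**Figure D4:**
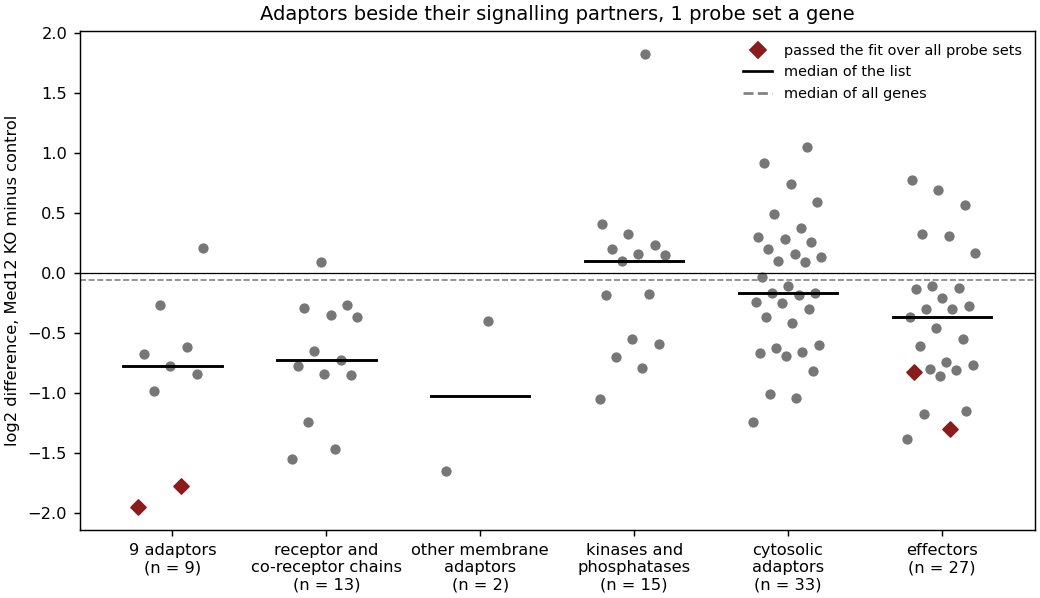
Log2 difference, Med12 KO minus control, of the 9 adaptor genes and of the measured genes in 5 lists of signalling partners (1 probe set a gene); black bars are medians, the dashed line is the median of all genes, and dark red diamonds passed limma's test. The median is -0.77 for the 9 adaptors, and those of the lists run from -1.02 for the 2 other membrane adaptors to 0.10 for kinases and phosphatases.

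Markers of several blood cell types also differed between control and knockout arrays. All 8 early lymphoid markers measured were lower and 4 fell; their summed signal ran from 4283 to 5380 in controls against 172.2 to 332.7 after deletion, with Dntt and Flt3 the brightest. Of 9 B lineage markers 8 were lower and none passed, and their sum ran from 401.2 to 886.9 in controls against 156.6 to 403.2 after deletion. Cd79b and Vpreb1 were the brightest of these, and the mature B cell marker Ms4a1 had signals of 1.2 to 8.6 on all 6 arrays. The T and NK sums overlapped, at 1228 to 1490 and 1081 to 1477, and came largely from Nkg7, which was at 0.18. Without Nkg7, the other 9 markers, summed after the values were seen, gave 304.5 to 380 in controls against 57.5 to 164.2 after deletion. The largest control means among them were 129.0 for Gzma, 88.9 for Klrd1 and 43.6 for Zap70. That sum rested largely on these 3 genes. Of the 10 T and NK markers 7 were lower and 3 higher (Nkg7, Ncr1 and Cd3g), with a median of -0.32. Ncr1 was at 0.32 with signals of 0.5 to 15.7. Klrd1 (-1.85), Gzma (-1.69) and Zap70 (-1.05) were lower without overlap, as were 2470 of all 18193 genes. None of the T and NK markers passed. The defining T cell chains Cd3d, Cd3e and Cd3g were near 0 in both groups, at 1.1 to 19.7 over the 3 genes and 6 arrays, and no marker listed had a signal of exactly 0. The myeloid markers, led by Mpo and Ctsg, fell in 7 of 8 genes, with sums of 8209 to 15266 and 579.1 to 1422. Erythroid markers had higher sums in knockouts (1619 to 2117 against 4789 to 7893), and 4 of 6 rose, Car1 among them, while Tfrc overlapped. Megakaryocyte and platelet markers had higher sums (3178 to 4655 against 5081 to 6738), but only Itga2b of the 7 rose, and Pf4 was at 0.10 with overlap. Mast cell and basophil markers also had higher sums (1256 to 1462 against 2055 to 2308). Of these 6 only Cma1 rose, Cpa3 was at 0.07 and Ms4a2 at 1.21, and Mcpt8 was at -1.69. The part of these cell types in the adaptor values was not tested, and in sorted bulk cells fewer cells of a type and less RNA per cell cannot be told apart.

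The genes whose signals ran most like the 3 adaptors of largest difference over the 6 arrays were taken from the 9097 genes in the brighter part of the array. For Lax1 they were Spata13 (Pearson r = 0.996), Cox6a2 (0.995) and Ppp1r12b (0.995). For Trat1 they were Ppp1r12b (0.995), Egln1 (0.994) and Ikbke (0.994), and for Pag1 Apcdd1 (0.991), Spg20 (0.990) and Sptssa (0.989). Ppp1r12b, named for both, had signals of 86.9, 87.8 and 89.4 in controls and 40.5, 39.2 and 38.9 in knockouts. All 6 points share 1 contrast, and high values were common: 182 genes had r over 0.95 with Lax1, 152 with Trat1 and 44 with Pag1. The 3 genes named for Pag1 were all highest on control replicate 3, where Apcdd1 had 266.6 against 48.0 and 34.2 on the other control arrays. Control replicate 3 stood out less in Spg20 (302.3 against 231.2 and 209.9) and Sptssa (2208.1 against 1899 and 1720.6). Their log2 differences were -0.34 and -0.25, and their groups overlapped.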

How the data were processed

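Total RNA (5 ng) from 6 sorted samples was amplified, labelled with biotin and measured on arrays, per the labels' protocols. The authors deposited 1 linear signal intensity per probe set and array. RMA is named per the submitters' processing notes without a version, but the deposited intensities run down to 0, with means of 149.1 to 149.3 after trimming 2% at each end of each array; how they were made is not known here. Of 45101 probe sets, 64 controls were left out. The platform annotation of 2016 gave 34945 probe sets 1 symbol, 932 several and 9160 none, and 0 value columns went unused.

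Signals were taken as log2(signal + 16) and compared in R 4.3.3 with limma 3.58.1 (lmFit, then a two-sided eBayes test on 4 residual plus 1.96 prior degrees of freedom). Benjamini-Hochberg adjustment ran over 45037 probe sets, with a threshold of 0.05. The brightest probe set on average stood for a gene. Named genes were all members, Med12, the 4 genes of lowest unadjusted p in each partner list and the 2 brightest of each marker list. The 3 genes most like each of 3 members were also named. Others are named as choices made after their values were seen or as defining markers. Among the markers, Klrd1, Ncr1, Cma1 and Mcpt8 were likewise named after their values were seen. Members and lists were chosen with earlier results of these data known. Steps were tested on simulated data. The number of arrays limits the precision. Alternatives were other offsets, priors, array weights, a block on replicate number, 3 normalizations, filters on dim probe sets, leaving out each array and means over probe sets.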

Additional observations from a re-analysis of the deposited data

How the results depend on the processing

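The 2 member calls, Lax1 and Trat1, came back under every setting tried except 1 added before log2, the replicate block and leaving out any array. With 1 added, limma called 0 members (7 probe sets at an unadjusted p under 0.05), 0 partner genes (26) and 42 of all probe sets (6069). Here a partner gene is read by its brightest probe set, while the last counts cover every probe set. With the replicate number as a block it called 0 members (9 probe sets at an unadjusted p under 0.05), 0 partner genes (33) and 0 of all probe sets (6752). The labels do not say that the numbers pair samples. Same-numbered arrays hardly deviated together over all probe sets (correlations 0.02, 0.02 and 0.002), but 3 arrays a group cannot settle whether they were paired. Leaving out 1 array gave 0 member and 0 partner calls each time, and 0 to 10 calls over all probe sets. Then 6 to 10 member probe sets and 23 to 31 partner genes had an unadjusted p under 0.05. Among all probe sets 5340 to 7141 did. The Med12 difference was -2.54 to -1.77. Over all probe sets 693 passed after median centring, which took the share of higher calls from 28.9% to 62.2%, 712 without the dimmest 25% and 763 without the dimmest 50%. Partner calls numbered 1 with a trended, robust prior (Tyrobp, lower), 1 with array weights (Prkcd, lower) and 1 after median centring (Sos1, higher in knockouts). With 64 added there were 2 (Sos1 higher, Prkcd lower). After quantile normalization there were 0 (32 at an unadjusted p under 0.05, and 6529 of all probe sets). After loess there were 0 (34 and 6478). With the mean of a gene's probe sets, adjusted over genes, there were 3. Without the dimmest 50% there were 4 (Nfatc2, Tyrobp, Themis2 and Rasgrp1, all lower). Med12 passed with the trended prior (-2.17; adjusted p = 0.0339) and without the dimmest 25% or 50% (-2.17; adjusted p = 0.0271 and 0.0248). Reversals were Lcp2 after median centring (0.0091) and without knockout replicate 3 (0.0604), and Lat without control replicate 1 (-0.0401). Leaving out each array in turn gave -0.455 to 0.0604 for Lcp2 and -0.0401 to 0.515 for Lat. Dim probe sets limit the sizes of Sit1, Blnk and Trat1, whose differences depend on the added constant.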

Other observations

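Single arrays stood apart in a few genes of the partner and marker lists, chosen after their values were seen. Fgr, a Src-family kinase of myeloid cells, had signals of 0.4 to 4.4 in controls and of 312.1, 10.6 and 12.5 in knockouts, with knockout replicate 1 far above the rest. Vpreb1, part of the surrogate light chain of the pre-B cell receptor, had 147.0 on knockout replicate 1 against 28.4 and 24.8 on the other knockout arrays, and 93.5 to 248.9 in controls. The basophil protease gene Mcpt8 had 181.3 on knockout replicate 2 against 20.7 and 24.7 on the other knockout arrays, and 176.5 to 212.7 in controls.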
